A study of Mus musculus with 12 samples.

Results

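Most of the genes described here encode nuclear subunits of the mitochondrial respiratory chain and of ATP synthase. The others, such as assembly factors and a pseudogene, share the symbol prefixes. All were measured in mouse submandibular gland at 50 weeks and at 8 weeks of age. A gene belonged to the set when its array symbol began with Nduf, Uqcr, Atp5, Cox4i, Cox5, Cox6, Cox7 or Cox8, or was one of Sdha, Sdhb, Sdhc, Sdhd, Cyc1 and Cycs. The array carried 139 probes for 89 such genes, and 80 genes had a probe detected (detection p-value below 0.05) on 6 or more arrays. These 80 were read from a fit of 9379 genes. Complex I gave 34 of them, its Ndufaf assembly factors 7, complex II 3, complex III 7, complex IV 10 and ATP synthase 16, with Cycs, Ndufa4 and Cox7a2l kept apart. The 34 of complex I include the pseudogene Ndufs5-ps.

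Complexes I to IV pass electrons from NADH and succinate to oxygen, and all of them but complex II pump protons across the inner mitochondrial membrane, and ATP synthase, or complex V, uses the returning protons to make ATP. Cytochrome c and ubiquinone carry the electrons between the complexes. Salivary ducts and acini spend much ATP on ion transport and secretion, and the striated ducts take their name from columns of mitochondria at the cell base. Most subunits are nuclear genes of even expression between tissues, while a few of complex IV exist as separate muscle and general forms.

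Total RNA of the submandibular gland, one of the major salivary glands, was hybridised as biotinylated cRNA to Illumina bead arrays, 6 from C57BL6J mice aged 50 weeks and 6 from C57BL6J mice aged 8 weeks. Both ages were of that strain with no treatment or engineered allele in the labels, which give no sex and do not say whether each array came from its own animal. With that unstated, p-values reflect only how far these samples vary, and part of the variation may be technical. The number of arrays limits the precision of every value below.

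Intensities are log2 values after background correction and quantile normalisation, and a change is the value at 50 weeks minus that at 8 weeks. Between 15318 and 18110 probes were detected per array at 50 weeks and between 15321 and 16433 at 8 weeks. All 9 measured acinar markers and all 7 measured granular tubule markers were kept, at mean log2 intensities of 12.51 to 12.63 and 14.75 to 14.83 on the 50-week arrays and 12.56 to 12.67 and 14.82 to 14.92 on the 8-week arrays. Among the other marker lists, 5 of 11 duct genes fell and 1 rose, 7 of 8 myoepithelial and smooth muscle genes rose, 9 of 11 leukocyte genes rose, 4 of 7 fibroblast genes fell and 1 rose, and 1 of 5 endothelial genes fell. These are calls at an adjusted p under 0.05, where 6.13% of all genes fell and 6.35% rose. With arrays set to 1 median instead, some calls were lost, such as Acta2 (adjusted p = 0.0643), and others kept, such as Mzb1 (3.09e-05). In the granular tubule list Klk1, a kallikrein, fell by 0.73 on the log2 scale, and 1 of the 9 acinar genes rose. A parotid and sublingual list ranged from 7.94 to 13.30 on the 50-week arrays and from 8.49 to 13.38 on the 8-week arrays. In such whole-gland RNA, fewer cells of a type and less RNA per cell cannot be told apart.

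Some arrays stood apart and touch the results below. The mean correlation of 50 weeks array 6 with the remaining 50-week arrays was 0.949, where the other 11 arrays had at least 0.975 with their own age, and it lay alone on the second principal component. The 8 weeks arrays 1 and 2, and to a lesser degree array 4, carried fat markers: the adipocyte list averaged 8.31, 10.19 and 7.36 there, against 5.56 to 5.71 on 8 weeks arrays 3, 5 and 6. Ucp1, the brown fat uncoupling protein, was at 8.98, 10.48 and 6.14 on arrays 1, 2 and 4, against 4.36 to 4.48 on those 3. For the set as a whole and for several of its genes, results are given with and without 50 weeks array 6 or 8 weeks arrays 1 and 2. The 8 weeks array 4 was kept in those runs. Among the other mitochondrial lists, only regulators of biogenesis are given without 8 weeks arrays 1 and 2.

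The promoters shown are those of the 2 complex I genes that fell, Ndufa6 and Ndufb5, and of the 2 genes with the lowest changes of the set, Cox7a1 and Cox8b. Each line holds the 150 bases before the RefSeq gene start (GRCm38.p6), 5′ to 3′ on the gene's own strand, at chr15:82354292-82354441 (minus) for Ndufa6, chr3:32736913-32737062 (plus) for Ndufb5, chr7:30184021-30184170 (plus) for Cox7a1 and chr7:140900447-140900596 (minus) for Cox8b. Capitals mark a match to the NRF1 motif, the site of a regulator known for nuclear genes of the respiratory chain.
Ndufa6: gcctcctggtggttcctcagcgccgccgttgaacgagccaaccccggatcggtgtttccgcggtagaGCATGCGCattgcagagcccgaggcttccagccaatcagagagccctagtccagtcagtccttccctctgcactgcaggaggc
Ndufb5: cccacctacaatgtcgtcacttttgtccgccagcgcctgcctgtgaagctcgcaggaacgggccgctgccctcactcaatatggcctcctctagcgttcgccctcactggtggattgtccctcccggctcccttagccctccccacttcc
Cox7a1: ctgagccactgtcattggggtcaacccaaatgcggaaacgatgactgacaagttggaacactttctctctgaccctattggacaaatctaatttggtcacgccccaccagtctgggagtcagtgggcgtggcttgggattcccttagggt
Cox8b: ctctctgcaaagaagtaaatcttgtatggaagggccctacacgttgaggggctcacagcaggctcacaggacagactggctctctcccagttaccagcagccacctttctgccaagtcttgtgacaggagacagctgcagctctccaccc

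The promoters of Cox7a1 and Cox8b, the muscle and fat isoforms, held fewer CpG dinucleotides than those of Ndufa6 and Ndufb5. In the 300-base window from 250 before to 50 after the start, Ndufa6 had 27 CpG and 65% G+C and Ndufb5 had 17 and 61%, while Cox7a1 had 7 and 53% and Cox8b 2 and 48.3%. The median over the 69 members with a RefSeq promoter was 20 CpG, against 21 over the 7628 tested genes with one. Cox7b, a broadly expressed subunit, had 5 and Ndufc2 had 8.

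Exact letters of 6 motifs were counted in that window on both strands. The NRF1 letters GCGCATGC stood in 13 of the 69 member promoters (18.8%), against 5.99% of all tested genes with a promoter. The holders were Atp5g2, Atp5k, Atp5l, Cox6a1, Cycs, Ndufa6, Ndufa8, Ndufa11, Ndufaf4, Ndufaf5, Sdhb, Uqcr11 and Uqcrc1. The letters of an ETS site, CCGGAAG, were in 18 of 69 (26.1%) against 20.4%, and those of YY1, ATGGCGGC, in 7 (10.1%) against 5.82%. Those of an oestrogen-related receptor site, TCAAGGTCA, were in only 2, Atp5g3 and Sdhd (2.90%), against 0.341%. The CCAAT box was in 43.5% against 42.7%, and the SP1 letters GGGCGG in 49.3% against 69.1%. A match describes the letters of this window and is no evidence of a bound factor.

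Most respiratory chain and ATP synthase genes changed little with age. In limma's moderated test over all genes (Benjamini-Hochberg threshold 0.05), 3 of 80 fell, Ndufb5, Ndufa6 and Uqcrc2, and 0 rose. Over all 9379 genes 6.13% fell and 6.35% rose, 12.5% in all, so the share of these genes that fell was not above that of all genes. The split of calls over all genes, 596 higher and 575 lower, was 320 and 73 under median scaling and 545 and 347 on the authors' scaled intensities. At an unadjusted p under 0.05, 14 members were lower and 2 higher, where 14.4% of all genes were lower and 12.8% higher. In the plot by complex, 73 of 80 (91.25%) had a 95% interval within 0.5 log2 units of 0, against 66.7% of all genes. These shares were 95% and 93.3% on the authors' values, 96.25% and 93.8% without background correction, and 72.5% and 44.5% under median scaling. In the main fit 0 of 80 changed by 1 log2 unit or more, where 112 of all 9379 genes did.

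**Figure D1:**
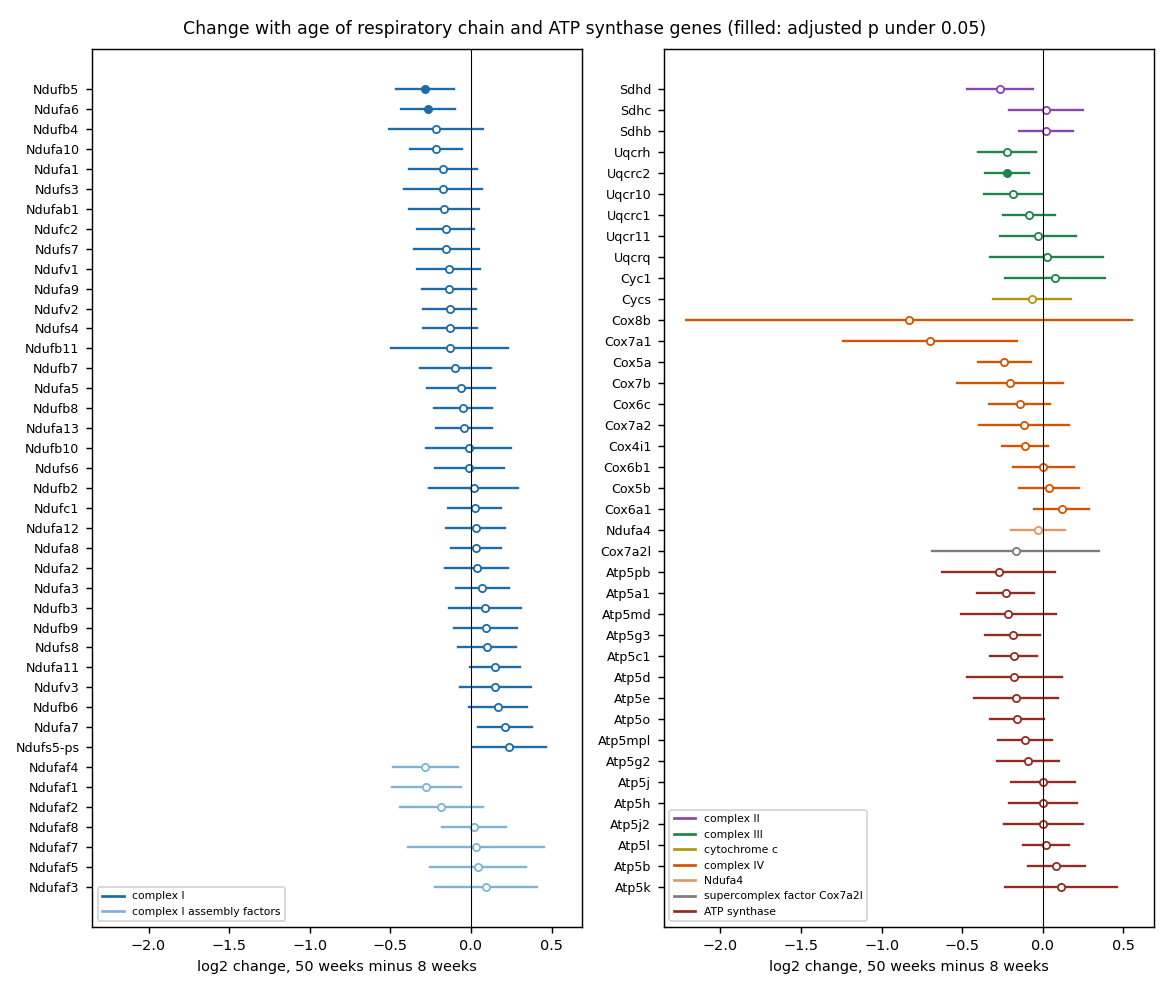
Change of each kept gene, as log2 intensity at 50 weeks minus 8 weeks (x axis) with its 95% interval, grouped by complex (colour); filled points had an adjusted p under 0.05. The 3 filled points are Ndufb5, Ndufa6 and Uqcrc2, all left of 0, and the wide intervals belong to Cox8b and Cox7a1; under median scaling the points move right, to a median of 0.05 where all genes have 0.10.

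The small changes leaned to the lower side. The median change of the 80 genes was -0.09, against -0.02 over all genes, and 49 of 80 (61.25%) were below 0, against 53.5% of all genes. The lean depended on the scaling: with arrays set to 1 median in place of quantile normalisation, the median of all genes was 0.10 and that of the members 0.05, so the members' median was above 0 but still 0.06 below that of all genes. On the authors' own scaled intensities the medians were -0.03 and -0.00. Under each processing alternative and each left-out array run, the members' median lay below that of all genes, by 0.03 to 0.10.

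The 3 calls were small and close to the threshold. Ndufa6, an accessory subunit of the matrix arm of complex I, had a lowest, median and highest log2 intensity of 10.44, 10.58 and 10.84 at 50 weeks, against 10.84, 10.87 and 10.94 at 8 weeks. All but array 6 at 50 weeks, or 5 of 6, lay below all 8-week arrays. Its change was -0.27 ± 0.08 (SE, n = 6 and 6; adjusted p = 0.0401), or 0.831 of the 8-week level.

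Ndufb5, an accessory subunit of the membrane arm, was at 9.19, 9.31 and 9.68 at 50 weeks, against 9.59, 9.63 and 9.69 at 8 weeks. Here too 5 of the 50-week arrays lay below every 8-week array, and the highest was array 6. The change was -0.29 ± 0.08 (SE; adjusted p = 0.0409).

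Uqcrc2, a core protein of complex III, had 11.24, 11.29 and 11.38 at 50 weeks, against 11.46, 11.49 and 11.60 at 8 weeks. All 6 arrays at 50 weeks were below all 6 at 8 weeks, with a change of -0.22 ± 0.06 (SE; adjusted p = 0.0362). It was the one gene among the 3 whose ages did not overlap.

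Each of these calls depended on single arrays, on the scaling and on the model. With the replicate number in the titles fitted as a block, 0 of the 3 passed. Leaving out 1 array gave an adjusted p of 0.00429 to 0.0884 for Ndufa6, which kept its call without 8 weeks array 2 (0.0497), 50 weeks array 5 (0.0494) or 50 weeks array 6 and lost it without any other. Ndufb5 kept its call only without 50 weeks array 6 (0.00114) and lost it without each of the other arrays (0.0557 to 0.0902). Uqcrc2 kept its call without 8 weeks array 3 (0.0491), 50 weeks array 3 (0.0473) or 50 weeks array 6 (0.0155) and lost it without each of the others (0.0543 to 0.0796). Median scaling gave -0.16, -0.17 and -0.10 for Ndufa6, Ndufb5 and Uqcrc2, with adjusted p of 0.615, 0.586 and 0.797. Without 8 weeks arrays 1 and 2 the same genes gave -0.28, -0.29 and -0.21, and none passed (adjusted p 0.0855, 0.0949 and 0.102). The changes themselves ran from -0.31 to -0.23, from -0.35 to -0.25 and from -0.24 to -0.21 for Ndufa6, Ndufb5 and Uqcrc2 without single arrays.

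**Figure D2:**
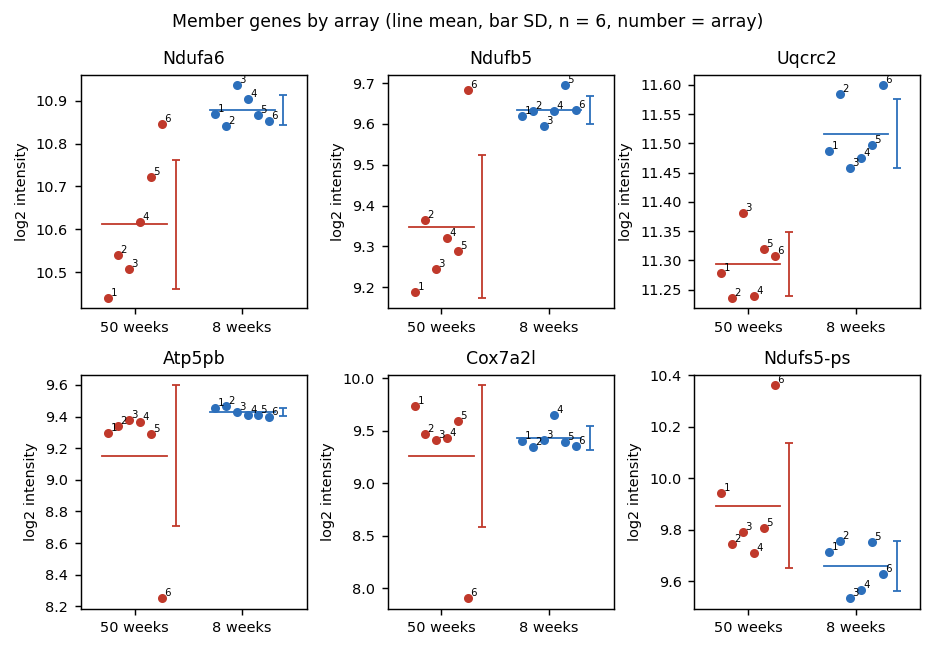
Log2 intensity of 6 named genes on each array (y axis; numbers are arrays), 50 weeks left and 8 weeks right, with the mean (line) and SD (bar) of 6 arrays. In Ndufa6 and Ndufb5 the 50 weeks array 6 lies beside the 8-week arrays, in Uqcrc2 the ages do not overlap, and in Atp5pb and Cox7a2l the 50 weeks array 6 lies far below the rest.

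The 50 weeks array 6 bore on the whole set. It was the highest array of its age in 55 of 80 members (68.75%), against 47.6% of all genes. It was the lowest in 16 (20%), against 27.8% of all genes. In 41 members (51.25%) it lay 0.25 log2 units or more above the median of the other 50-week arrays, as it did in 39.7% of all genes. In 10 members (12.5%) it lay that far below, as it did in 23.6% of all genes. Without this array 19 of 80 members fell (23.75%) and 0 rose, where 13.6% of all genes fell and 11.4% rose. The difference between these shares was not tested, and this was 1 of 12 arrays left out in turn.

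The 19 genes came from every multi-gene complex. They were Ndufa1, Ndufa6, Ndufa10, Ndufb4, Ndufb5, Ndufs4 and Ndufs7 of complex I, Ndufaf1 and Ndufaf2 of its assembly factors, Sdhd of complex II, Uqcrc2, Uqcrh and Uqcr10 of complex III, Cox5a, Cox6c, Cox7a2 and Cox7b of complex IV, and Atp5c1 and Atp5e of ATP synthase. The median of the 80 was then -0.10, with 62 of 80 below 0 (77.5%), while all genes had a median of -0.03 and 55.1% below 0. Without 8 weeks arrays 1 and 2 as well, 12 members fell (15%) and 1, Cyc1, rose, where 13% of all genes fell and 11.3% rose.

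**Figure D3:**
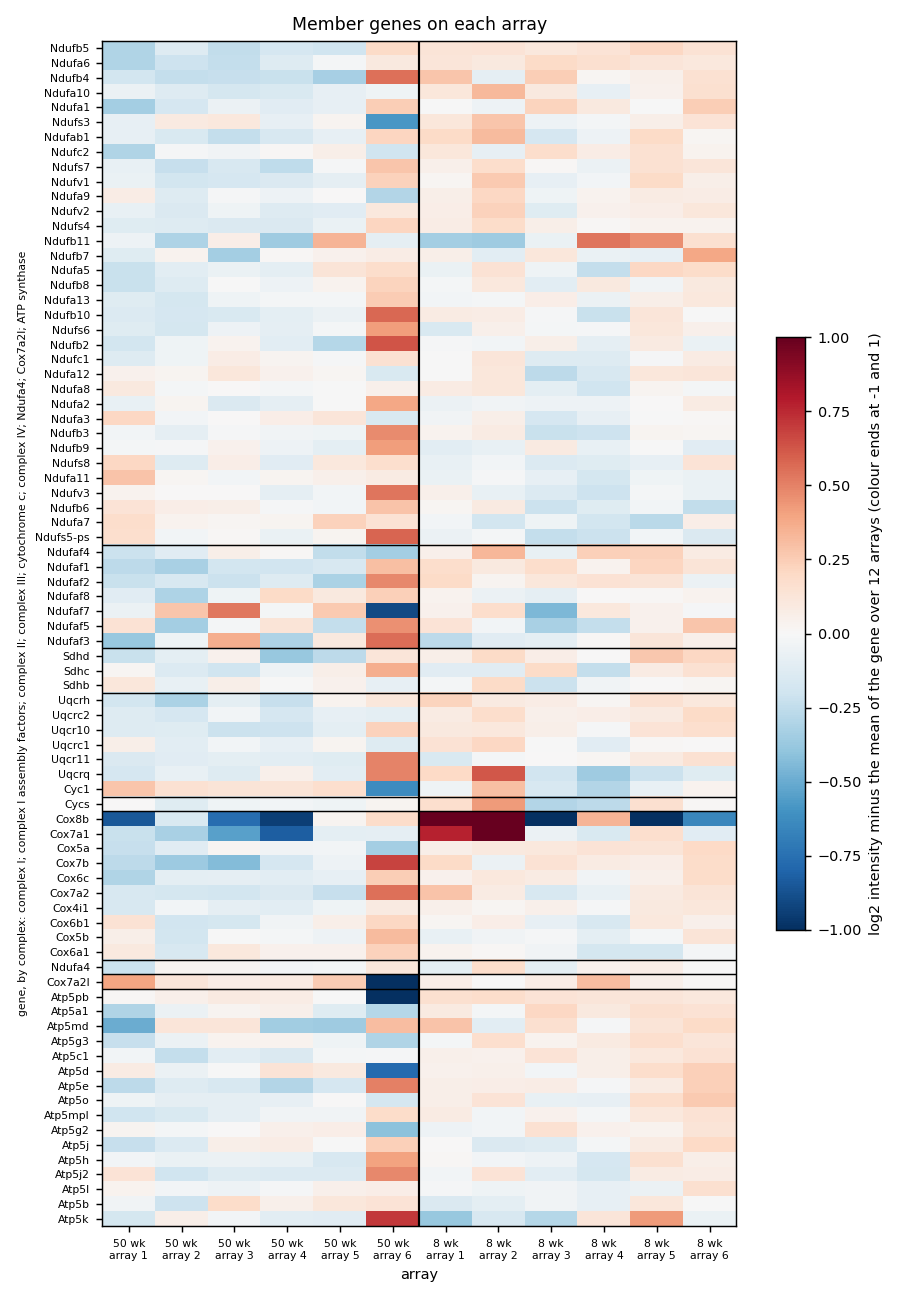
Log2 intensity of each kept gene minus its mean over 12 arrays (colour, ends at -1 and 1), genes in rows by complex and arrays in columns, 50 weeks left of the line and 8 weeks right. The column of 50 weeks array 6 is red in most rows and deep blue in Cox7a2l and Atp5pb, and the reddest 8-week cells are those of Cox8b and Cox7a1 on arrays 1 and 2.

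The subunits varied together between arrays of 1 age. With the mean of each age removed, the median correlation between 2 members over 12 arrays was 0.28, and 0.35 between 2 complex I genes, against 0.02 between 2 genes of the whole table. Without 50 weeks array 6 these values were 0.15, 0.17 and 0.00 over 11 arrays. The arrays are shared by all pairs, so the values are a description.

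Complex I takes electrons from NADH. Besides Ndufa6 and Ndufb5, 32 of its 34 genes did not pass the test, and the median change of the 34 was -0.05, with 20 below 0. Their direction as a group was not stable: the median was 0.10 under median scaling, where all genes had 0.10, and 0.02 on the authors' values. The highest change, 0.23 ± 0.11 (SE; adjusted p = 0.175), was that of Ndufs5-ps, a transcribed pseudogene of the subunit Ndufs5, whose probe may also take up RNA of the parent gene. Ndufs5-ps lay at 9.71 to 10.36 at 50 weeks and 9.53 to 9.76 at 8 weeks, again with array 6 on top at 50 weeks.

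Several complex I genes without a call had 5 of 6 arrays on 1 side. Of genes picked after their values were seen, Ndufa1, Ndufb4 and Ndufs4 had 5 arrays at 50 weeks below all 8-week arrays, and Ndufa11 had 5 above all. The share of all genes with such a pattern was not counted, so these genes are only a description. Ndufb4, an accessory subunit, was at 8.06 to 8.20 on 50 weeks arrays 1 to 5 and at 8.94 on array 6, against 8.30 to 8.66 at 8 weeks. Its change was -0.22 with array 6 (adjusted p = 0.329) and -0.35 without it (0.00594). Ndufa7, also picked afterwards, had the reverse direction at 0.21 ± 0.08 (SE; adjusted p = 0.0919).

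Assembly factors of complex I, which help to build it and are not part of the finished enzyme, gave 0 calls among 7. Ndufaf4 had the lowest change, -0.28 ± 0.09 (SE; adjusted p = 0.065), with a range of 8.34 to 8.74 at 50 weeks and 8.61 to 9.01 at 8 weeks. A second Ndufaf4 probe gave -0.39, and the mean of both probes passed the test (adjusted p = 0.0368). Ndufaf3 had the highest, 0.09 ± 0.15 (adjusted p = 0.736). Its probe was dim, at 5.36 to 6.30 at 50 weeks and 5.48 to 5.87 at 8 weeks.

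Complex II, succinate dehydrogenase, is shared between the chain and the citrate cycle, and its 3 kept genes gave 0 calls. Sdhd, a membrane anchor, was at 8.57, 8.79 and 9.07 at 50 weeks, against 8.95, 9.07 and 9.21 at 8 weeks, a change of -0.27 ± 0.09 (SE; adjusted p = 0.0815) that became -0.32 (0.0165) without 50 weeks array 6. Sdhb, the iron-sulphur subunit, changed by 0.02 ± 0.08 and Sdhc, the other anchor, by 0.02 ± 0.11. The 95% intervals of both, -0.15 to 0.19 and -0.21 to 0.25, lay within 0.5 log2 units of 0. Sdha, the flavoprotein, had a probe detected on 2 of 12 arrays and was not tested.

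Complex III passes electrons from ubiquinol to cytochrome c. Uqcrc2 fell and the other 6 of its 7 genes did not pass. Over all 7 the median change was -0.09, with 5 below 0. Uqcrh, the hinge protein, was at 10.24, 10.42 and 10.67 at 50 weeks, against 10.58, 10.66 and 10.78 at 8 weeks, with a change of -0.22 ± 0.08 (SE; adjusted p = 0.0992). Without 50 weeks array 6 Uqcrh gave -0.27 (0.0183).

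Cyc1, the haem-bearing cytochrome c1, went the other way by 0.08 ± 0.15 (SE; adjusted p = 0.792). It was at 9.50 to 9.65 on 50 weeks arrays 1 to 5 and at 8.75 on array 6, against 9.08 to 9.67 at 8 weeks. Without that array the change was 0.21 (adjusted p = 0.116), and without 8 weeks array 2 as well it was 0.28 (0.0172). Cycs, the soluble cytochrome c, changed by -0.07 ± 0.11 (adjusted p = 0.746), with 9.87 to 10.01 at 50 weeks inside 9.70 to 10.41 at 8 weeks.

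Complex IV, cytochrome c oxidase, reduces oxygen, and 0 of its 10 kept nuclear genes passed. Their median change was -0.13, with 7 below 0, and 0.01 under median scaling. Of the broadly expressed forms, Cox4i1 changed by -0.11 ± 0.07, Cox6a1 by 0.12 ± 0.08, Cox6b1 by 0.00 ± 0.09, Cox7a2 by -0.12 ± 0.13 and Cox7b by -0.20 ± 0.15 (SE; adjusted p 0.32 to 0.995). Cox6a1 had 5 arrays at 50 weeks above all 8-week arrays and Cox4i1 had 5 below, and neither passed the test. This pattern, too, was not counted over all genes.

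Cox7a2 and Cox7b turned on 50 weeks array 6. Cox7b was at 7.51 to 7.90 on the other 50-week arrays and 8.62 on array 6, against 7.89 to 8.14 at 8 weeks. Without it Cox7b gave -0.36 (adjusted p = 0.00728) and Cox7a2 -0.24 (0.0415). Cox5a, a subunit with no isoform list here and picked after its values were seen, did not overlap between ages, with 11.42 to 11.78 at 50 weeks, against 11.82 to 11.96 at 8 weeks, and missed the threshold (-0.24 ± 0.08 SE; adjusted p = 0.0577).

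The muscle and fat isoforms of complex IV had the largest changes of the set, and both changes were smaller in size without 2 young arrays. Cox8b, the muscle and brown fat form of subunit VIII, was at 6.41, 6.89 and 7.53 at 50 weeks, against 6.11, 7.20 and 10.50 at 8 weeks, a change of -0.83 ± 0.64 (SE; adjusted p = 0.444). Arrays 1 and 2 at 8 weeks read 9.33 and 10.50, and the next was array 4 at 7.69. Without them the change was 0.25 (adjusted p = 0.692), the opposite sign.

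Cox7a1, the muscle form of subunit VIIa, was at 6.91, 7.46 and 7.65 at 50 weeks, against 7.59, 7.79 and 9.21 at 8 weeks. Its change of -0.70 ± 0.25 (SE; adjusted p = 0.0841) missed the threshold, and 4 of 6 arrays at 50 weeks were below all 8-week arrays. Without 8 weeks arrays 1 and 2, which read 8.50 and 9.21, the change was -0.31 (adjusted p = 0.203). Cox7a1 passed with array weights (-0.74, adjusted p = 0.0228). It also passed without both 8 weeks array 2 and 50 weeks array 6, a run that kept 8 weeks array 1.

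Fat markers moved with both isoforms. The adipocyte list had 5 of 10 genes kept (Adipoq, Lpl, Cidec, Cidea and Ucp1), at array means of 5.40 to 6.71 at 50 weeks and 5.56 to 10.19 at 8 weeks. Cidea, a lipid droplet protein of brown fat, was at 7.39 and 9.26 on 8 weeks arrays 1 and 2 and 6.02 on array 4, and Adipoq, the fat hormone adiponectin, at 8.70, 10.56 and 8.38. Of the defining fat genes, Plin1 was detected on 0 arrays and Fabp4 on 1, and Lep, Retn and Pck1 were also not kept. Over 12 arrays Cox8b correlated with Ucp1 at r = 0.96 and Cox7a1 at 0.86, and without 8 weeks arrays 1 and 2 the values were 0.71 and 0.05 over 10. Ucp1 was detected on only 6 of the 12 arrays. With Lpl, detected on all 12, Cox8b had 0.90 and Cox7a1 0.91, and 0.46 and 0.51 over those 10. With Acta1, a skeletal muscle marker, they had 0.64 and 0.74, and -0.11 and 0.45 over those 10. Cox7a1 had 0.15 with Cidea and 0.20 with Adipoq over the 10. The part of fat or muscle in the 2 changes was not tested.

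Skeletal muscle markers stood on 1 of those arrays. Cox6a2, the muscle form of subunit VIa, was detected only on 8 weeks array 2, at 6.64, against 4.35 to 4.51 on the other 8-week arrays and 4.53 to 4.83 on the 50-week arrays. Acta1, skeletal actin, was at 9.05 there and at 5.38 to 6.26 on the other 8-week arrays, with 5.48 to 5.98 at 50 weeks. Of 13 muscle markers on the array, 1 was kept. Cox4i2 and Cox6b2, other tissue forms, were not kept.

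**Figure D4:**
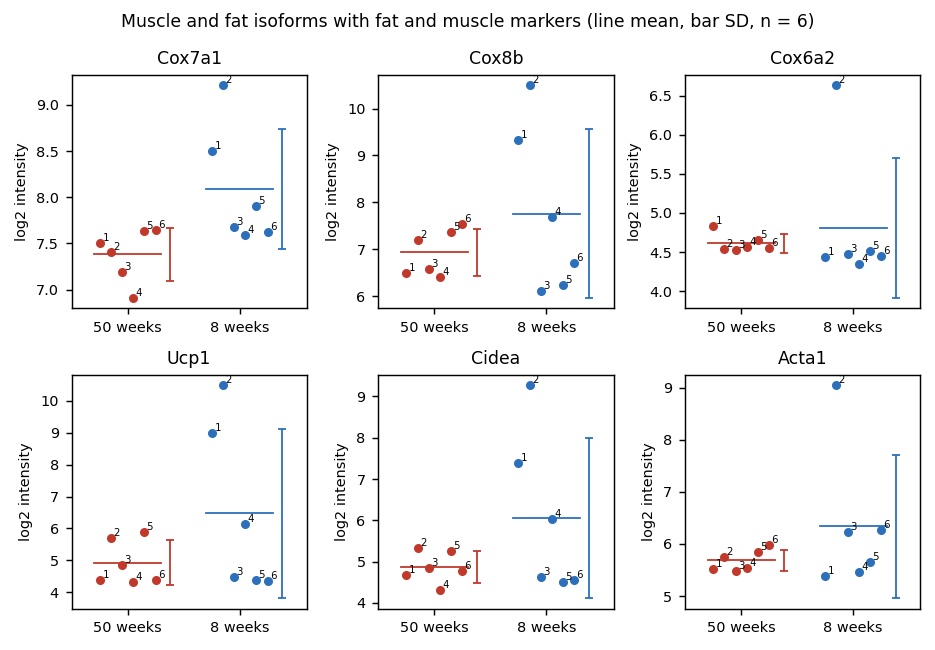
Log2 intensity on each array (y axis; numbers are arrays) of Cox7a1, Cox8b and Cox6a2 above and of Ucp1, Cidea and Acta1 below, 50 weeks left and 8 weeks right, with mean (line) and SD (bar) of 6 arrays. Cox7a1, Cox8b, Ucp1 and Cidea are high on 8 weeks arrays 1 and 2, and Cox6a2 and Acta1 on array 2.

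Ndufa4, first counted in complex I and now placed in complex IV, changed by -0.03 ± 0.08 (SE; adjusted p = 0.85). Cox7a2l, which joins complexes III and IV into supercomplexes, changed by -0.17 ± 0.24 (adjusted p = 0.71). On 50 weeks array 6 Cox7a2l read 7.91, against 9.42 to 9.74 on the other 50-week arrays and 9.34 to 9.65 at 8 weeks. Without that array its change was 0.10 (adjusted p = 0.384), again with the sign turned.

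ATP synthase gave 0 calls among 16 genes, with a median change of -0.14 and 10 below 0, and a median of 0.00 under median scaling. Of the c-ring genes, which make the same mature protein, Atp5g2 changed by -0.09 ± 0.09 (SE; adjusted p = 0.561) and Atp5g3 by -0.19 ± 0.08 (adjusted p = 0.143). Atp5g3 was at 12.87, 13.12 and 13.20 at 50 weeks, against 13.15, 13.27 and 13.34 at 8 weeks. Atp5k, a small membrane subunit, had the highest change, 0.11 ± 0.16, from a dim probe at 5.22 to 6.09 at 50 weeks and 5.01 to 5.82 at 8 weeks.

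Atp5pb, subunit b of the peripheral stalk, had the lowest change, -0.27 ± 0.16 (SE; adjusted p = 0.309), although its ages did not overlap. It was at 9.29 to 9.38 on 50 weeks arrays 1 to 5 and 8.25 on array 6, against 9.40 to 9.46 at 8 weeks. Without array 6 the change was -0.09 (adjusted p = 0.215). Its 4 probes all had changes below 0, -0.34 to -0.17, but on array 6 the brightest pair read low (8.25 and 7.70) and the third read high (7.29, against 6.29 to 6.62 on the other 50-week arrays). The mean of the 4 probes passed the test (-0.27, adjusted p = 0.0372).

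Ages did not overlap in 4 of the 80 genes, all with 50 weeks below 8 weeks: Atp5c1, Atp5pb, Cox5a and Uqcrc2. Over all genes 6.45% did not overlap. Atp5c1, the gamma subunit in the rotor of ATP synthase and picked after its values were seen, lay at 11.55 to 11.78 at 50 weeks, against 11.83 to 11.94 at 8 weeks (change -0.18 ± 0.07 SE; adjusted p = 0.0953).

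Separate probes of a gene could be compared for part of the set. In the 26 genes with several kept probes, the gap between their highest and lowest change ran from 0.00 for Uqcr10 to 0.46 for Ndufaf5. The called genes Ndufa6, Ndufb5 and Uqcrc2 were each read by a single probe, so their calls have no other probe to compare. The Ndufaf5 probes gave -0.42 and 0.04, and those of Atp5a1, the alpha subunit of ATP synthase, -0.23 and 0.10. Probes of Ndufc2 gave -0.42 and -0.16, and the mean of its probes passed the test.

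Subunits encoded in the mitochondrial genome gave 0 calls among the 8 measured. Their median change was 0.03, with a range of -0.24 for ND5 to 0.53 for ND6, both complex I subunits. The bright ones were tight: CYTB of complex III changed by 0.00 ± 0.08 and COX2 of complex IV by 0.08 ± 0.08 (SE). ND6 was detected on 5 arrays at 50 weeks and 3 at 8 weeks.

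Lists of other mitochondrial genes were read from the same fit. Assembly factors outside the set fell in 2 of 34 and rose in 0, with Cox11, a copper chaperone for complex IV, at -0.44 ± 0.09 (SE; adjusted p = 0.00784) and Sdhaf3, which helps to mature Sdhb, at -0.39 ± 0.09 (0.0118). Mitochondrial ribosomal proteins fell in 4 of 72 and rose in 0, among them Mrpl15 (-0.28) and Mrps30 (-0.33). These shares are close to the 6.13% of all genes. Electron routes to ubiquinone fell in 1 of 15, Etfa, which feeds electrons from fat oxidation (-0.35 ± 0.09).

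Citrate cycle enzymes were below 0 in 11 of 12, where 53.5% of all genes were, with a median change of -0.20. Of these enzymes 2 fell and 1 rose, where 6.13% of all genes fell and 6.35% rose. Their array mean was 9.64 on 8 weeks array 2, 9.31 to 9.48 on the other 8-week arrays and 9.15 to 9.33 at 50 weeks. The changes of these enzymes are given only with that array included. Idh3a, of NAD-dependent isocitrate dehydrogenase, fell by 0.43 on the log2 scale and Dld, shared by the pyruvate and oxoglutarate dehydrogenases, by 0.35, while Ogdh of oxoglutarate dehydrogenase rose by 0.38. Under median scaling Idh3a and Dld gave -0.31 and -0.25 and Ogdh 0.50. Of 19 import genes, Timm8a1 (-0.42) and Timm10 (-0.39), chaperones between the membranes, fell, and Tomm6 of the outer pore rose (0.39). Vdac1, the main outer membrane channel, fell (-0.44 ± 0.07 SE; adjusted p = 0.00148), as 1 of 7 carriers.

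Of 12 regulators of mitochondrial biogenesis, 3 fell and 0 rose, where 6.13% of all genes fell. Ppargc1a, a coactivator that drives mitochondrial biogenesis, was at 6.12, 6.31 and 6.55 at 50 weeks, against 6.62, 7.26 and 7.46 at 8 weeks, a change of -0.79 ± 0.15 (SE; adjusted p = 0.00403) with no overlap. Esrra, the receptor that works with it on respiratory genes, was at 8.79, 8.91 and 9.24 at 50 weeks, against 9.33, 9.36 and 9.43 at 8 weeks (-0.41 ± 0.08; adjusted p = 0.00583), also with no overlap. Tfb1m, a mitochondrial rRNA methyltransferase, fell by 0.42 on the log2 scale.

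The 3 regulators were below 0 in the runs without 2 of the arrays that carried fat markers. Without 8 weeks arrays 1 and 2 the changes were -0.67 for Ppargc1a, -0.42 for Esrra and -0.45 for Tfb1m, and under median scaling they were -0.65, -0.29 and -0.27. Under that scaling none of the 3 passed (adjusted p 0.114, 0.309 and 0.509). Of 11 duct markers, Ascl3 fell by 0.85, Slc4a4 by 0.77, Scnn1g by 0.47, Atp1b1 by 0.43 and Scnn1b by 0.39 on the log2 scale, Cftr rose by 0.60 and 5 did not pass, and the duct list ran from 8.78 to 8.89 at 50 weeks, against 8.97 to 9.33 at 8 weeks. The part of ducts in the regulators' and subunits' changes was not tested.

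Of the set, 9 genes had no kept probe: Cox4i2, Cox6a2, Cox6b2, Cox7b2, Cox8c, Ndufaf6, Ndufs1, Sdha and Uqcrfs1. Ndufs1 and Uqcrfs1, core subunits of complexes I and III, had probes detected on 0 arrays, which bounds only what those probes can read. Ndufb11 and Ndufaf7 were the kept genes not detected on all 12 arrays, with Ndufb11 found on 3 at 50 weeks and 4 at 8 weeks.

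**Figure D5:**
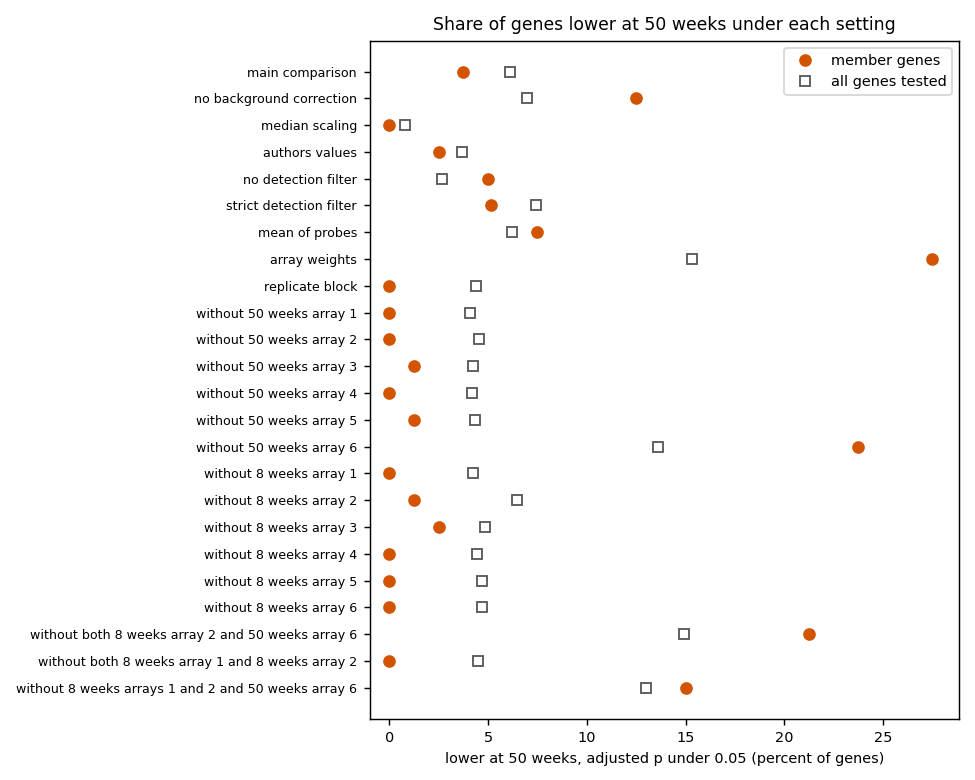
Share of genes lower at 50 weeks with an adjusted p under 0.05 (x axis, percent) for the 80 kept genes (orange circles; 78 under the strict detection filter) and all genes tested (open squares) under each setting (rows). The orange circles run from 0 to 27.5%, and the 4 settings furthest right leave out 50 weeks array 6 or weight the arrays.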

How the data were processed

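The deposited table holds a linear probe intensity for 45281 probes on 12 arrays, and per the file headers a detection p-value follows each. The authors' second table holds the same intensities multiplied by 1 factor per array (0.803 to 1.26), as a comparison of both showed. The scanner software was not given in the sources used here, nor was any scaling of the first table. The deposited intensities were background-corrected from their detection p-values, quantile-normalised with an offset of 16 and put on a log2 scale with limma 3.58.1 (R 4.3.3, data.table in version 1.17.8, statmod 1.5.0). Of 16254 probes kept, those with exactly 1 symbol entered (13842), and the brightest stood for its gene, leaving 9379 genes. Ages were compared by a 2-sided test with lmFit and eBayes, adjusted over all genes by the Benjamini-Hochberg method. The steps were tested on simulated data.

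The members and lists were chosen with earlier results of these data known. Named genes are members past the threshold, the highest and lowest change in each complex, complex II and cytochrome c genes, isoform pairs, and up to 3 genes per pathway list with the smallest adjusted p; others are given as picked after their values were seen. The alternatives were the background, scaling, source table, filter, probe rule, array weights, replicate block and left-out arrays. Leaving out 8 weeks arrays 1 and 2, with or without 50 weeks array 6, was chosen after seeing the data. Promoters and gene types came from RefSeq (GRCm38.p6).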

Additional observations from a re-analysis of the deposited data

Results flagged for a closer look

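A sample far from the others of its age (by Dixon's test) was found in 10 of 50 groups of 6 arrays. Each group held the values of a named gene at 1 age. Chance gives about 1 in 20 for a single group. The genes share the same arrays, so the groups are not independent and their count cannot be judged against that rate. Some genes were also named for the highest or lowest change in their complex, which an extreme array can shift. Of the 10 samples found, 9 were 50 weeks array 6. That array was the highest of its age for Cox7a2 (9.21), Cox7b (8.62), Ndufb5 (9.68), Ndufs5-ps (10.36) and Atp5k (6.09). It was the lowest for Cox7a2l (7.91), Atp5pb (8.25), Cyc1 (8.75) and Atp5g2 (9.44). The remaining one was 8 weeks array 4, the highest of its age for Cox7a2l (9.65). The cause of these values was not tested.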

How the results depend on the processing

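The 3 lower calls became 22 with array weights, 10 without background correction (and 1 higher), 6 with the mean of probes, and 0 under median scaling and without both 8 weeks arrays 1 and 2. They became 17 (and 1 higher) without both 8 weeks array 2 and 50 weeks array 6, and 12 (and 1 higher) without 8 weeks arrays 1 and 2 and 50 weeks array 6. The authors' values gave 2 and each detection filter 4. Leaving out 1 array gave 0 to 19 lower calls and 0 higher, with 19 without 50 weeks array 6 and 0 to 2 without any other. Over all genes the lower calls were 15.3% with array weights, 6.98% without background correction, 6.23% with the mean of probes, 0.778% under median scaling, and 14.9% and 13% in the 2 runs that leave out 8-week arrays with 50 weeks array 6. The lower share of all genes was 3.70% on the authors' values, 2.65% without a detection filter and 7.42% with the strict filter. It was 4.49% without both 8 weeks arrays 1 and 2, 13.6% without 50 weeks array 6 and 4.06% to 6.47% without any other array. The cause of these shifts was not tested. The members' median change of -0.09 was 0.048 under median scaling and below 0 otherwise.

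The replicate number in the titles was not taken to pair the arrays, since no label ties it to a shared litter, batch or day and the correlations of same-numbered arrays were 0.25, 0.25, 0.30, 0.17, 0.10 and -0.01, with arrays 3 and 4 matching their own number best. The parotid and sublingual list was lowest on arrays 3 and 5 at both ages (7.94 and 8.17 at 50 weeks, 8.49 and 9.62 at 8 weeks). On the other arrays that list was at 10.55 to 13.30 at 50 weeks and 12.40 to 13.38 at 8 weeks. Whether the number marks a shared handling step was not tested. With the replicate number as a block (replicate block), Ndufa6, Ndufb5 and Uqcrc2 had adjusted p of 0.0928, 0.0808 and 0.11. The members then gave 0 lower calls and a median of -0.09, and all genes 501 higher and 410 lower, against 596 and 575. Signal over background limits Ndufb11, Ndufaf7, Atp5k, Ndufaf3, Ndufaf5 and Uqcrq, whose probes were dim.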
